A study of Takifugu fasciatus with 6 samples.

Results

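CEBPA, CEBPB, CEBPD, HNF4A, FOXA2 and PROX1 are transcription factors that hepatocytes use to keep their liver program. Their transcripts were followed in the liver of the pufferfish Takifugu fasciatus under cold stress. A gene model belonged to the set when its Swiss-Prot gene name equalled 1 of the 6 names, letter case ignored, also after dropping a final a or b. The rule found 12 gene models among 20990: 1 each for CEBPA, CEBPB, CEBPD and HNF4A, 2 for FOXA2 and 6 for PROX1. The EG group (libraries Ga, Gb and Gc) was cooled from 26 °C to 12 °C and kept there for 24 h, and the CG group (libraries G1, G2 and G3) stayed at 26 °C. All fish were juveniles from 1 supplier, acclimated at 26 °C for 2 weeks and left without food from 24 h before the treatment, and livers of 6 fish were pooled for each library. EG fish were also held at 19 °C for 12 h on the way down, and the parts of the cooling cannot be told apart. The fish were kept in several aquaria, but neither labels nor methods state outright that each pool was 1 aquarium, so p-values measure the spread between pools with any aquarium effect in it.

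C/EBP proteins are basic leucine zipper factors that bind DNA as dimers. In mammalian liver, CEBPA keeps hepatocytes in a differentiated, non-dividing state and drives genes of glucose and nitrogen metabolism. CEBPB and CEBPD are the members induced by cytokines and glucocorticoids in the acute phase response. HNF4A is a nuclear receptor that holds up the expression of apolipoproteins, clotting factors and bile acid enzymes, FOXA2 is a forkhead factor that opens chromatin at liver genes, and PROX1 is a prospero-type homeodomain factor of hepatocytes and lymphatic endothelium that represses bile acid synthesis in mammals.

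Library totals ran from 32391863 to 45548824 counts in EG and from 31150888 to 39203099 counts in CG, and 14357 gene models had enough counts to be tested. Levels are CPM, counts scaled to a common library size with TMM factors, which were 0.824 to 0.973 in EG and 1.098 to 1.147 in CG. A change was called at a Benjamini-Hochberg adjusted p under 0.05 in edgeR's quasi-likelihood test over all tested genes, and a DEG also had an absolute log2 fold change (EG over CG) above 1. All tested genes had a median log2 fold change of -0.026, or -0.37 when library totals replaced the TMM factors. Marker genes of hepatocytes summed to 273243 to 331810 CPM in EG and 225959 to 252506 CPM in CG, so both groups carried the labelled tissue. Of 25 tested hepatocyte markers 11 were higher (44%, beside 23.7% of all tested genes) and 2 lower (8%, beside 21.7%), with a median of 0.35. Over the 14 alternatives 5 to 12 were higher and 1 to 5 lower. With library totals in place of TMM factors 5 were higher and 5 lower, so the rise depended on the scaling. All tested genes then had 2024 higher and 4514 lower. The part of this rise in the values of the hepatocyte factors was not tested. Summed exocrine pancreas markers were 572 CPM in Gb and 5473 CPM in G3, against 16030 and 20869 CPM in Ga and Gc and 17113 and 23700 CPM in G1 and G2. In bulk liver RNA, fewer cells of a type and less RNA per cell cannot be told apart.

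Of the 12 gene models, 9 were tested, 3 were higher in EG (CEBPB, hnf4a and 1 Prox1 model), 4 were lower (CEBPA, foxa2 and 2 PROX1 models) and 2 did not pass. One of the lower models, PROX1 10013958, reached the filter's minimum in 3 CG libraries but only 1 EG library (Ga). It passed the filter through CG alone, so its direction was set by the filter. Without this model 8 models were tested, with 3 higher, 3 lower and 3 DEGs. Over all tested genes 23.7% were called higher, 21.7% lower and 45.4% either way, so being called was common in this comparison. The 3 models that were not tested had no more than 4 counts in any library. Of the 9 tested models 4 were DEGs (1 higher and 3 lower), and of all tested genes 29.0% (13.7% higher and 15.4% lower). The EG and CG libraries did not overlap in the same 7 models, 3 with EG above and 4 with EG below, beside 29.0%, 28.8% and 57.8% of all tested genes with EG above, EG below and either.

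**Figure D1:**
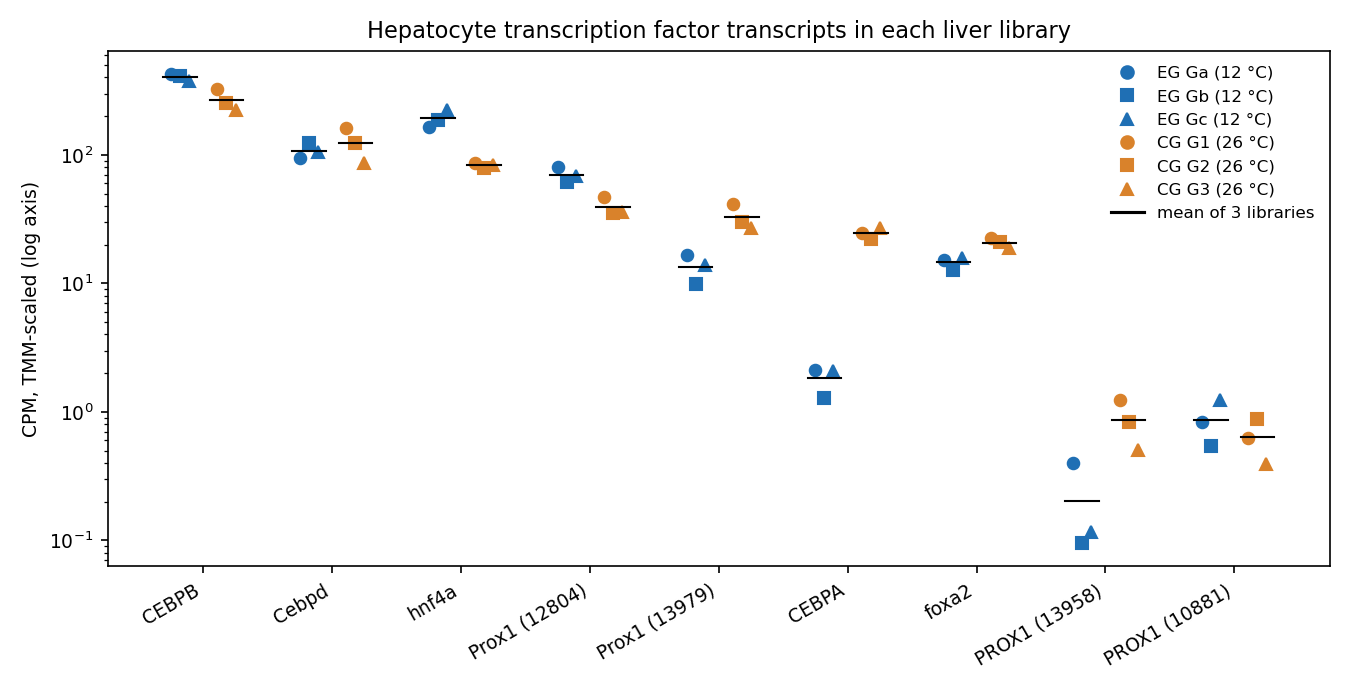
TMM-scaled CPM (log axis) of the 9 tested gene models in each library, EG at the left of each pair and CG at the right, with black bars for the mean of 3 libraries. Numbers in brackets are the last digits of the PROX1 model names. CEBPA stands at 1.27 to 2.13 CPM in EG against 22.3 to 26.7 CPM in CG, the widest gap of the 9 models.

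CEBPA had the largest fold change of the set. The model (fugu_GLEAN_10015419) lies on scaffold 65 of the authors' unpublished assembly, bases 123178 to 124041 of the plus strand, and its span of 864 bases equals its coding length, as in an intronless gene. CEBPA was at 2.13, 1.27 and 2.08 CPM in Ga, Gb and Gc, against 24.5, 22.3 and 26.7 CPM in G1, G2 and G3. All EG libraries were far below all CG libraries, with 40 to 80 counts against 954 to 1027 counts. The level was 13.3-fold lower in EG (log2 fold change -3.74, SE 0.23, edgeR adjusted p = 6.13e-05), and CEBPA had the 95th largest decrease of the 14357 tested genes. The call was kept in all 14 alternative scalings, filters, tests and left-out libraries, with log2 fold changes from -4.10 to -3.53.

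The CEBPA model lies inside the span of CEBPG on the opposite strand (bases 119616 to 144539). CEBPG encodes a short C/EBP protein that dimerizes with the other members. CEBPG was at 12.7, 7.75 and 9.39 CPM in Ga, Gb and Gc and at 6.64, 7.14 and 8.10 CPM in G1, G2 and G3. Its log2 fold change of 0.45 did not pass (adjusted p = 0.128), and its groups overlapped. The counting is not stated to use strand, so reads of the 2 genes cannot be told apart where their exons meet.

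CEBPB, by contrast, was modestly higher in EG. Its model (fugu_GLEAN_10009091; scaffold 7, bases 160134 to 161009, plus strand) also has no intron in its span of 876 bases. CEBPB was at 424, 408 and 377 CPM in Ga, Gb and Gc, against 327, 253 and 223 CPM in G1, G2 and G3. The lowest EG library stood above the highest CG library, and the fold was 1.51 (log2 fold change 0.59, SE 0.18, adjusted p = 0.0262). This call was fragile. It was lost in 8 of 14 alternatives, among them library totals (0.25, adjusted p = 0.292) and leaving out Ga (0.56, adjusted p = 0.0638), Gb (0.59, adjusted p = 0.0502), G2 (0.55, adjusted p = 0.0871) or G3 (0.48, adjusted p = 0.0927). On the deposited FPKM scale, which divides by coding length and library total, the groups overlapped, with 399, 453 and 377 FPKM in EG against 422, 317 and 292 FPKM in CG.

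Cebpd did not pass the test. The intronless model (fugu_GLEAN_10004932; scaffold 12, bases 228902 to 229765, plus strand) was at 94.3, 124 and 105 CPM in Ga, Gb and Gc, against 163, 124 and 85.7 CPM in G1, G2 and G3. The EG values lay inside the CG range, and the log2 fold change was -0.21 (SE 0.24, adjusted p = 0.508). Without G1, the CG library with the highest level, the value was 0.035. G1 also held the most fos, an immediate early gene of tissue handling and stress, at 113 CPM against 18.7 and 8.38 CPM in G2 and G3, and 37.4, 41.1 and 24.4 CPM in EG. The 27 tested handling genes summed to 292 to 353 CPM in EG and 177 to 541 CPM in CG, the last in G1, and their part in the CEBPB and Cebpd levels was not tested. Of these genes 5 were higher and 6 lower (8 higher and 3 lower without G1), beside 23.7% and 21.7% of all tested genes. GADD45B (model 10003646), a stress-induced gene, was at 11.6, 22.1 and 18.3 CPM in EG, against 0.716, 0.395 and 0.784 CPM in CG (log2 fold change 4.78, adjusted p = 9.0e-05). JUN (model 10001612), a subunit of AP-1, was at 1.89, 0.603 and 1.35 CPM in EG and had no count in CG. This model entered the test through EG alone, so its direction was set by the filter, and its place among the higher genes supports nothing. JUN models 10019218 and 10010101 had log2 fold changes of -0.58 (adjusted p = 0.0281) and -0.70 (did not pass, adjusted p = 0.121). The immediate early factor egr1 was lower in both of its called models, with log2 fold changes of -2.34 (model 10011804, adjusted p = 0.0308) and -2.21 (model 10003354, adjusted p = 0.0144).

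The ratio of CEBPB to CEBPA inside a library does not depend on scaling between libraries and is given as a description, since the pair was chosen with values of these data known. CEBPB exceeded CEBPA by 196-, 317- and 179-fold (FPKM) in Ga, Gb and Gc, against 13.1-, 11.2- and 8.24-fold in G1, G2 and G3. Every EG ratio was above every CG ratio. The log2 ratio averaged 7.80 ± 0.44 in EG and 3.41 ± 0.34 in CG (SD, n = 3 each), a difference of 4.39 or 20.9-fold. Most of the difference lay in CEBPA, whose FPKM was 1.43 to 2.11 in EG against 28.3 to 35.4 in CG.

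**Figure D2:**
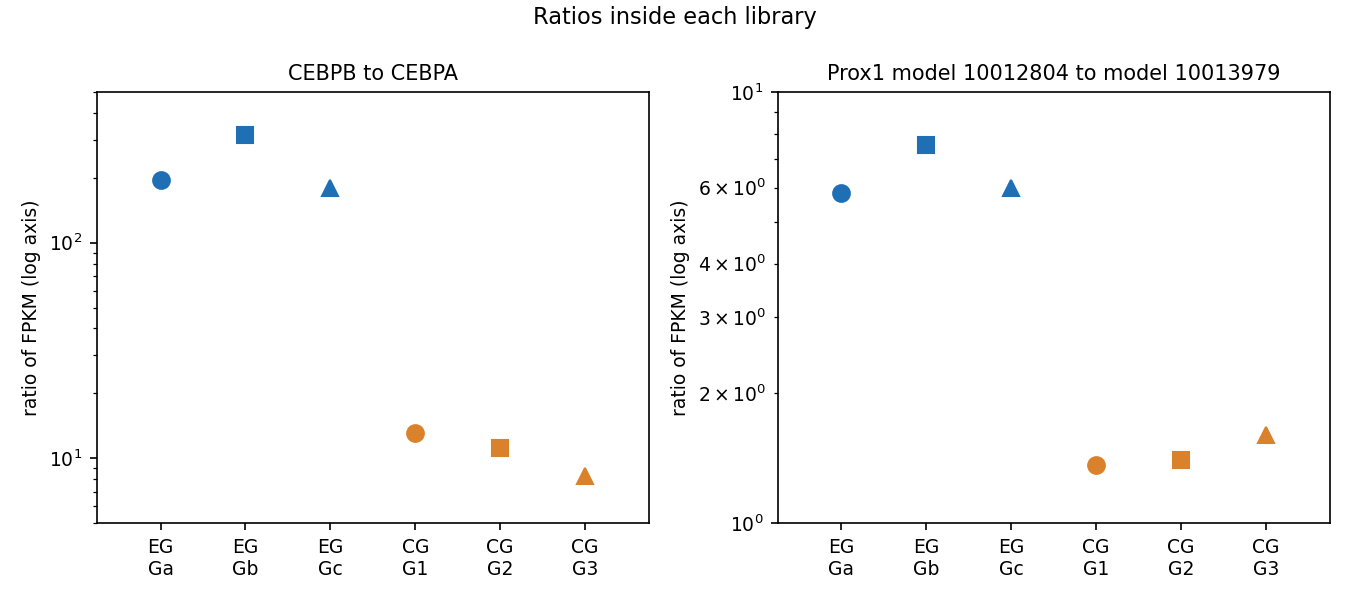
Ratios of FPKM inside each library (log axes; 1 point per library, EG at the left and CG at the right). CEBPB to CEBPA was 179 to 317 in EG and 8.24 to 13.1 in CG, and Prox1 model 10012804 to model 10013979 was 5.82 to 7.54 in EG and 1.36 to 1.60 in CG.

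HNF4A had the largest increase of the set. The only hnf4a model (fugu_GLEAN_10001688; scaffold 295, bases 49451 to 53692, minus strand; KEGG entry hepatocyte nuclear factor 4-alpha) was at 166, 188 and 222 CPM in Ga, Gb and Gc, against 86.7, 78.5 and 82.8 CPM in G1, G2 and G3. The groups were well apart, and the CG libraries lay within a narrow band. The fold was 2.32 (log2 fold change 1.21, SE 0.16, adjusted p = 0.000686), a DEG, and the call held in all 14 alternatives (0.86 to 1.32). The paralog HNF4G was at 0.640, 14.5 and 1.02 CPM in Ga, Gb and Gc and at 8.40, 7.32 and 8.07 CPM in G1, G2 and G3. Its Gb library stood above all CG libraries and the other EG libraries below them, and it did not pass (log2 fold change -0.56, adjusted p = 0.665). Gb was the library with the lowest pancreas marker sum. In CG the lowest sum was in G3, whose HNF4G value lay between those of G1 and G2. The part of pancreas in the HNF4G values was not tested.

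FOXA2 was modestly lower in EG. The expressed foxa2 model (fugu_GLEAN_10006694; scaffold 209, bases 531590 to 537280, minus strand) was at 15.3, 12.7 and 15.8 CPM in Ga, Gb and Gc, against 22.5, 21.1 and 18.7 CPM in G1, G2 and G3. The groups did not overlap, and the level was 1.42-fold lower (log2 fold change -0.51, SE 0.15, adjusted p = 0.0263). The call was lost without Gb (-0.41, adjusted p = 0.0627), without G1 (-0.45, adjusted p = 0.101) and without G2 (-0.49, adjusted p = 0.0885), and the value reached -0.85 in fits scaled by library totals. In each group the lowest foxa2 value was in the library with the lowest pancreas marker sum, Gb in EG and G3 in CG, and the part of pancreas in this difference was not tested. The pancreas sums overlapped between the groups. Biliary markers summed to 510 to 651 CPM in EG and 560 to 656 CPM in CG. Of 16 tested, 1 was higher (6.25%, beside 23.7% of all tested genes) and 2 lower (12.5%, beside 21.7%). Lower were sox9 (log2 fold change -0.75) and Cldn4 model 10006947 (-2.56). The higher model, CLDN4 10006315, entered the test through EG alone, so its direction was set by the filter. The part of biliary cells in the foxa2 values was not tested. A second foxa2 model (fugu_GLEAN_10002997; scaffold 99, bases 228310 to 230494, minus strand) had no count in any library, which allows up to 0.0659 to 0.0926 CPM in EG and 0.0765 to 0.0963 CPM in CG (3 counts per library, counting error only).

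PROX1 was the only name with several expressed models, and they did not move together. Model 10012804 (scaffold 124, bases 2833289 to 2851573, plus strand, 2553 coding bases) was the most abundant. It was at 79.9, 61.8 and 68.7 CPM in Ga, Gb and Gc, against 46.7, 35.0 and 35.9 CPM in G1, G2 and G3. All EG libraries were above all CG libraries, and the fold was 1.79 (log2 fold change 0.84, SE 0.17, adjusted p = 0.00558).

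Model 10013979 (scaffold 84, bases 2429508 to 2455808, plus strand, 3087 coding bases) went the other way. It was at 16.6, 9.91 and 13.8 CPM in Ga, Gb and Gc, against 41.5, 30.1 and 27.1 CPM in G1, G2 and G3. Again the groups were apart, here with EG below, and the level was 2.45-fold lower (log2 fold change -1.29, SE 0.24, adjusted p = 0.00336). Both calls held in all 14 alternatives, with log2 fold changes of 0.48 to 0.98 for model 10012804 and -1.65 to -1.09 for model 10013979. KEGG assigns both models to prospero homeobox 1, and reads that fit both copies could have been split between them by the authors' counting. The Swiss-Prot match of model 10013979 to mouse PROX1 was weaker (BLAST E value 1.5e-29) than that of model 10012804 (given as 0). It was also weaker than the PROX1 match of model 10013958 (1.2e-52), so by Swiss-Prot the name of model 10013979 is less certain. The KEGG description, however, reads prospero homeobox 1 for model 10013979 and prospero homeobox protein 1-like for model 10012804.

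The ratio of the first model to the second was 5.82, 7.54 and 6.0 (FPKM) in Ga, Gb and Gc, against 1.36, 1.40 and 1.60 in G1, G2 and G3. This ratio was formed after the values were seen and was not tested. The summed FPKM of the 6 PROX1 models was 29.6 ± 2.03 in EG and 31.3 ± 6.07 in CG (SD, n = 3 each), so the groups overlapped in the sum. FPKM divides by library total without TMM factors, so the order of these means is not on the scale of the calls above. Model 10012804 held 82.1% of that sum in EG and 55.4% in CG, and model 10013979 held 12.9% in EG and 38.1% in CG.

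The other PROX1 models were at low levels. Model 10013958 lies on scaffold 84 (bases 2122560 to 2125354, minus strand), 304153 bases from model 10013979. Its best Swiss-Prot match is human PROX1, but its KEGG entry is prospero homeobox 2, so the label is doubtful for this model. It had 15, 3 and 4 counts in Ga, Gb and Gc, against 52, 36 and 18 counts in G1, G2 and G3, or 0.400, 0.0953 and 0.117 CPM against 1.24, 0.837 and 0.504 CPM. It entered the test through its CG libraries alone, so its fitted value is a description and supports nothing. The log2 fold change was -2.04 (SE 0.69, adjusted p = 0.0412), and the call was lost without Gb, Gc, G1, G2 or G3 in turn (adjusted p = 0.0993, 0.113, 0.155, 0.095 and 0.0513) and without the filter on low counts (adjusted p = 0.0525). Its value was -0.63 with limma on log2(FPKM + 1), which understates the change of low genes.

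Model 10010881 (scaffold 18, bases 1020412 to 1021993, plus strand) was at 0.827, 0.540 and 1.23 CPM in Ga, Gb and Gc and at 0.621, 0.883 and 0.392 CPM in G1, G2 and G3. The groups overlapped and it did not pass (log2 fold change 0.45, SE 0.51, adjusted p = 0.509). Models 10008005 and 10008004 (scaffold 156, 6668 bases apart, both inside the span of dlst on the opposite strand) were at the limit of detection, the first with 4 counts in Ga alone and the second with no count in any library.

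PROX1 also marks lymphatic endothelium. Of 15 tested endothelial and lymphatic markers 4 were lower (26.7%, beside 21.7% of all tested genes) and 11 did not pass. STAB2, a scavenger receptor of sinusoidal endothelium, was at 5.57 CPM in EG and 24.3 CPM in CG, and the transcription factor Fli1 at 2.03 CPM in EG and 5.16 CPM in CG. The other lower markers were both models of the adhesion molecule PECAM1, Pecam1 with a log2 fold change of -0.84 and PECAM1 with -1.27. The markers summed to 178 to 251 CPM in EG and 223 to 300 CPM in CG. The lymphatic receptor flt4 was at 10.2, 9.75 and 19.2 CPM in EG and 12.5, 14.6 and 9.69 CPM in CG, and the part of these cells in the PROX1 values was not tested. Leukocytes, which use CEBPA, CEBPB and CEBPD as well, had marker sums of 39.2 to 75.1 CPM in EG and 78.0 to 125 CPM in CG, with 3 of 11 tested markers lower (27.3%, beside 21.7%) and 8 that did not pass. That count was 5 without Ga and 1 without Gb, G1 or G3. CORO1A, a leukocyte actin-binding protein, was at 3.42 CPM in EG and 15.5 CPM in CG, the oxidase subunit CYBB at 4.48 CPM in EG and 11.8 CPM in CG, and the actin bundler lcp1 at 10.5 CPM in EG and 20.9 CPM in CG, and the part of leukocytes in the CEBPA values was not tested.

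Erythrocyte markers had 4 of 9 tested genes lower (44.4%, beside 21.7% of all tested genes) and 5 that did not pass, with a median log2 fold change of -0.87. The count was 2 without Gb, Gc or G3 and 7 without G1. The alpha-globin gene hba averaged 1032 CPM in EG and 2883 CPM in CG, the heme enzyme alas2 125 CPM in EG and 459 CPM in CG, the ammonium channel RHAG 18.5 CPM in EG and 63.2 CPM in CG, and the factor tal1 26.3 CPM in EG and 48.0 CPM in CG. The markers summed to 3522 to 6960 CPM in EG and 6295 to 16115 CPM in CG, and their part in the values of the hepatocyte factors was not tested.

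**Figure D3:**
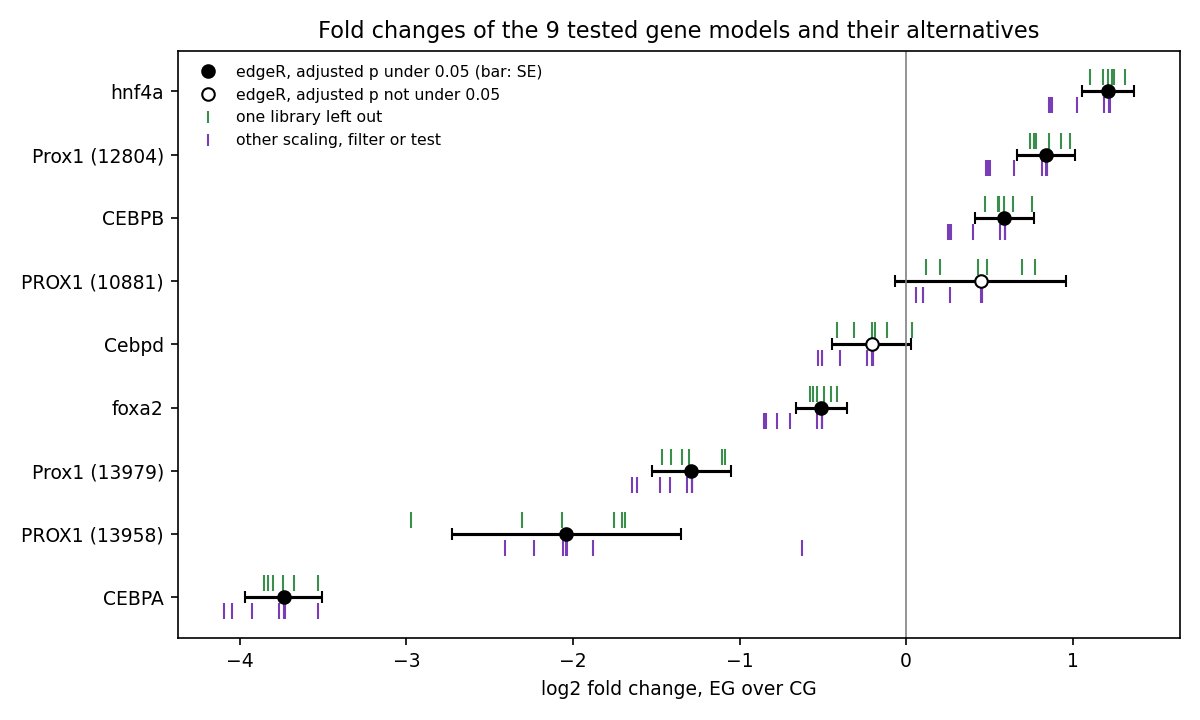
Log2 fold changes (EG over CG) of the 9 tested models. Points are the edgeR values with bars of 1 SE, filled where the adjusted p was under 0.05; green ticks above each point leave out 1 library, and purple ticks below it use another scaling, filter or test. CEBPA spans -4.10 to -3.53 over the 14 alternatives and hnf4a 0.86 to 1.32, whereas Cebpd reaches 0.035 without G1.

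Per coding length, CEBPB was the most abundant model of the set in both groups, at 409 FPKM in EG and 344 FPKM in CG. In EG it was followed by hnf4a (125 FPKM), Cebpd (112 FPKM), Prox1 model 10012804 (24.3 FPKM), foxa2 (7.88 FPKM), Prox1 model 10013979 (3.82 FPKM) and CEBPA (1.86 FPKM). Of these neighbours, hnf4a and Cebpd overlapped over the EG libraries, and CEBPA overlapped with PROX1 model 10010881 below it (1.34 FPKM). In CG the order was CEBPB, Cebpd (162 FPKM), hnf4a (68.2 FPKM), CEBPA (31.9 FPKM), Prox1 model 10012804 (17.3 FPKM), foxa2 (14.2 FPKM) and Prox1 model 10013979 (12.0 FPKM), where the last 3 overlapped with their neighbours. CEBPA thus stood at rank 9528 of the tested genes by FPKM in EG and at rank 1698 in CG.

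As shares of the summed FPKM of all 12 models, CEBPA made up 0.276% in EG and 5.04% in CG, and CEBPB 59.8% in EG and 52.7% in CG. HNF4A held 18.3% in EG and 10.7% in CG, CEBPD 16.2% in EG and 24.5% in CG, and FOXA2 1.16% in EG and 2.22% in CG. PROX1 held 4.36% in EG and 4.81% in CG.

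The genes whose log2 CPM followed each model most closely over the 6 libraries are given as a description, since libraries of 2 groups set most of such a correlation. For CEBPA they were 2 models of Macf1 (r = 0.999 each), a cytoskeletal cross-linker, and the myosin kinase MYLK (r = 0.998), all lower in EG. For hnf4a they were the oxysterol receptor Nr1h3 (r = 1.000, log2 fold change 1.30), the canalicular transporter ABCC2 (r = 0.997, log2 fold change 1.94) and FBXO42 (r = 0.997). For CEBPB they were NF1, ZMIZ2 and ELMOD2 (r = 0.994 to 0.995), and for foxa2 SPTBN1, Tnrc18 and RBM4 (r = 0.992 to 0.997). Prox1 model 10012804 was followed by FAT1, APBB1 and DAZAP2 (r = 0.992 to 0.999) and model 10013979 by scrib, TBC1D16 and the liver factor ONECUT2 (r = 0.992 to 0.996). Cebpd had the fewest close genes, with PNP (r = 0.982) and Scamp1 (r = 0.971) nearest and 7 of 5677 genes over 0.9. CEBPA had 754 and hnf4a had 1345. PROX1 model 10010881, which did not pass either, had 42, and the scarce model 10013958 had 134.

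Among 15 other liver-enriched transcription factors tested, 2 were higher (13.3%, beside 23.7% of all tested genes) and 3 were lower (20.0%, beside 21.7%). Over the 14 alternatives 1 to 2 were higher and 3 to 5 lower. Library totals gave 1 higher and 5 lower. NR5A2, a nuclear receptor of bile acid and sterol genes, was at 33.3, 43.6 and 59.3 CPM in EG, against 21.9, 19.6 and 19.0 CPM in CG, with the groups apart (log2 fold change 1.17, adjusted p = 0.00336). The bile acid receptor Nr1h4 had 2 models that moved oppositely. The abundant one averaged 641 CPM in EG and 382 CPM in CG (log2 fold change 0.75, adjusted p = 0.0127; lost in 4 of 14 alternatives), and the scarce one 13.4 CPM in EG and 91.7 CPM in CG (log2 fold change -2.77, adjusted p = 6.13e-05).

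Onecut1, a cut-homeodomain factor of liver development, averaged 2.47 ± 0.604 CPM in EG and 11.8 ± 1.45 CPM in CG (SD, n = 3 each; log2 fold change -2.26, adjusted p = 0.000272). Its relative ONECUT2 averaged 17.2 CPM in EG and 30.7 CPM in CG (log2 fold change -0.84, adjusted p = 0.00492) and was named after its value was seen. Foxa3 did not pass (log2 fold change 0.039, adjusted p = 0.911). The median log2 fold change of this list was -0.25, beside -0.026 over all tested genes.

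**Figure D4:**
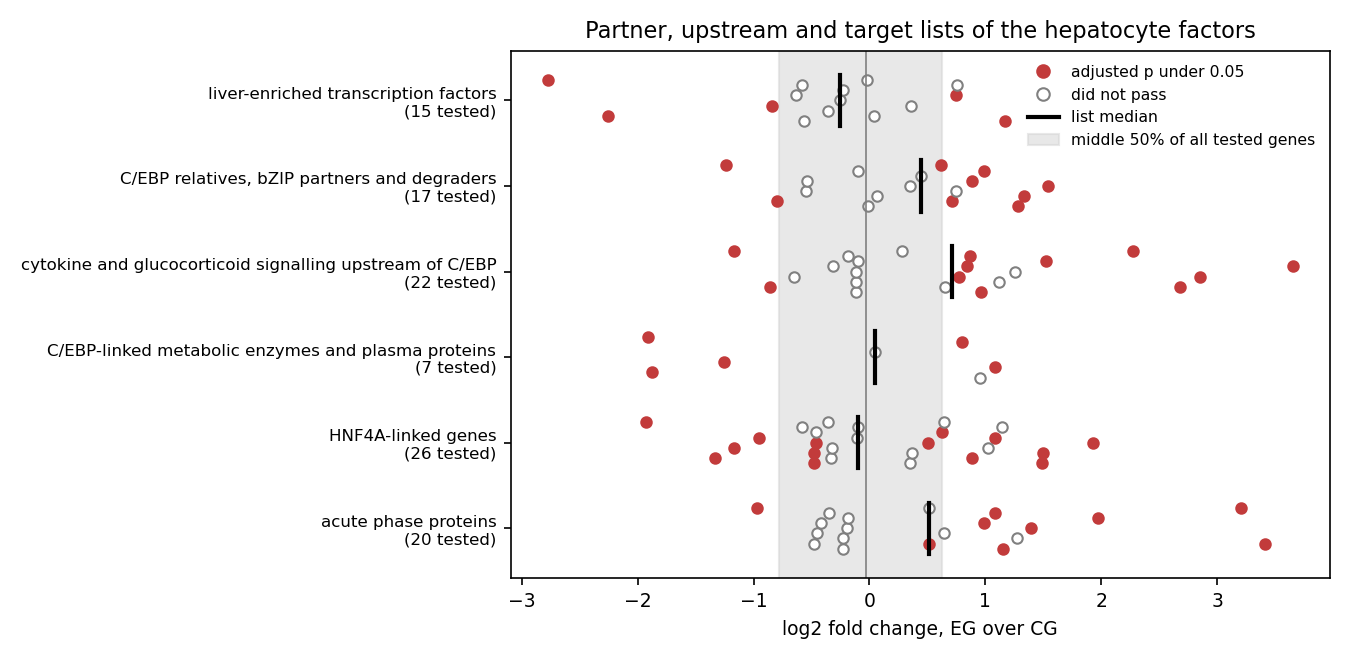
Log2 fold changes (EG over CG) of the tested genes in 6 lists around the hepatocyte factors. Each point is a gene model, red where the adjusted p was under 0.05; black bars are list medians and the grey band holds the middle 50% of all tested genes. Cytokine and glucocorticoid signalling has the highest median (0.71) and liver-enriched transcription factors the lowest (-0.25).

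Cytokine and glucocorticoid signalling acts upstream of C/EBP in mammals. The list of its genes also holds glucocorticoid-induced genes (FKBP5 and Tsc22d3) and SOCS genes, so its counts do not measure signalling upstream of C/EBP. Of 22 tested genes of this list, 9 were higher (40.9%, beside 23.7% of all tested genes) and 2 were lower (9.09%, beside 21.7%). Their median log2 fold change was 0.71, beside -0.026, and no list was tested against the other genes. Over the 14 alternatives 5 to 10 were higher and 1 to 3 lower (1 without Ga, Gb, G1 or G2). FKBP5, a chaperone that glucocorticoids induce, was at 885, 918 and 912 CPM in EG, against 80.1, 117 and 19.7 CPM in CG (log2 fold change 3.65, SE 0.57, adjusted p = 0.00155). The EG libraries were close to each other, and those of CG spread widely. The interleukin 1 receptor IL1R1 (model 10004443) was at 194, 219 and 197 CPM in EG and 31.8, 22.2 and 30.7 CPM in CG (log2 fold change 2.85, adjusted p = 6.13e-05).

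Jak2 model 10014868, a kinase of cytokine receptors, was lower (log2 fold change -1.17, adjusted p = 0.00631). Tsc22d3 model 10007317, a glucocorticoid-induced leucine zipper gene, was also lower (-0.86, adjusted p = 0.0246), a call lost in 4 of 14 alternatives. A scarcer Tsc22d3 model (10009949) stood higher in all EG libraries than in all CG libraries but did not pass (0.65, adjusted p = 0.0661). Another JAK2 model (10000081) was higher (0.84, adjusted p = 0.0342). The most abundant JAK2 model, 10012528, averaged 149 CPM in EG and 161 CPM in CG and did not pass (-0.12, adjusted p = 0.672). IL6ST, the shared receptor chain of the interleukin 6 family, and Stat3 (model 10017062), its transcription factor, were named after their values were seen, with log2 fold changes of 2.28 and 1.52. The glucocorticoid receptor nr3c1 had 3 tested models that did not pass, with log2 fold changes of 0.28, -0.31 and -0.11. The list summed to 3156 to 3548 CPM in EG and 806 to 1060 CPM in CG. Much of that gap lay in IL6ST (mean 1259 CPM in EG and 260 CPM in CG) and FKBP5 (905 CPM in EG and 72.1 CPM in CG). Of the 22 tested genes 11 did not pass.

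Among 17 tested C/EBP relatives, partners and degraders, 7 were higher (41.2%, beside 23.7% of all tested genes) and 2 lower (11.8%, beside 21.7%), with a median of 0.45. Over the 14 alternatives 4 to 9 were higher and 1 to 3 lower (1 without G1 or G2). CEBPZ, which shares the name but is a nucleolar protein without a C/EBP leucine zipper, averaged 30.7 CPM in EG and 10.5 CPM in CG (log2 fold change 1.54, adjusted p = 0.000479). Trib1, a pseudokinase that targets CEBPA protein for degradation in mammals, was at 24.3, 28.9 and 34.5 CPM in EG, against 7.97, 19.7 and 7.14 CPM in CG. The groups did not overlap (log2 fold change 1.33, adjusted p = 0.0218), although the call was lost in 3 of 14 alternatives. The circadian bZIP genes TEF (model 10012224, log2 fold change -1.24, adjusted p = 0.00163) and nfil3 (model 10018258, -0.80, adjusted p = 0.0218) were lower. The nfil3 call was lost in 3 of 14 alternatives. Another TEF model (10003392) was higher (0.72, adjusted p = 0.00853). The more abundant nfil3 models 10018611 (-0.017, adjusted p = 0.955) and 10018610 (0.75, adjusted p = 0.145) did not pass.

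Of 7 tested metabolic and plasma protein genes that C/EBP factors control in mammals, 2 were higher (28.6%, beside 23.7% of all tested genes) and 3 lower (42.9%, beside 21.7%), with a median of 0.046. Across the 14 alternatives these counts ran from 1 to 3 and from 2 to 3. TTR, the thyroxine carrier transthyretin, averaged 368 CPM in EG and 174 CPM in CG (log2 fold change 1.08, adjusted p = 0.00107). TAT, which degrades tyrosine and is induced by glucocorticoids, averaged 827 CPM in EG and 477 CPM in CG (0.80, adjusted p = 0.00935; lost in 3 of 14 alternatives). Both glucose 6-phosphatase models, the last step of glucose release, were lower. The model g6pc averaged 28.7 ± 14.0 CPM in EG and 108 ± 12.1 CPM in CG (log2 fold change -1.91, adjusted p = 0.00309), and the model G6PC was at 45.7, 89.5 and 108 CPM in EG, against 335, 330.3 and 228 CPM in CG (-1.88, adjusted p = 0.00237).

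Of 26 tested HNF4A-linked genes 7 were higher and 7 lower (26.9% each, near the 23.7% and 21.7% of all tested genes), with a median of -0.10. The higher count was 4 without Ga, G1 or G3, the lower count was 4 without G1 or G2, and over the 14 alternatives they ran from 4 to 9 and from 4 to 11. CYP7A1 (model 10003050), the rate-limiting enzyme of bile acid synthesis, was at 29.0, 24.5 and 48.8 CPM in EG, against 9.76, 10.7 and 6.47 CPM in CG (log2 fold change 1.93, adjusted p = 0.00156). The more abundant Cyp7a1 model 10000864 went the other way, at 30.2, 40.3 and 38.8 CPM in EG against 54.2, 54.3 and 41.8 CPM in CG. Its groups did not overlap, but it did not pass (log2 fold change -0.46, adjusted p = 0.0607). CYP8B1 (model 10013511), which makes cholic acid, was at 52.6, 17.8 and 54.5 CPM in EG, against 16.3, 18.9 and 9.08 CPM in CG (1.50, adjusted p = 0.0238). Its Gb value lay inside the CG range, and the call was lost in 6 of 14 alternatives. The more abundant CYP8B1 model 10013502 was at 159, 70.9 and 148 CPM in EG, against 46.7, 63.5 and 24.0 CPM in CG. Its groups did not overlap, and it was higher (log2 fold change 1.49, adjusted p = 0.0178). CYP8B1 models 10013503 (1.02, adjusted p = 0.0774) and 10013501 (1.14, adjusted p = 0.164) did not pass. The apolipoprotein models APOA4 10002893 (log2 fold change -1.93, adjusted p = 0.000912) and APOA4 10002894 (-1.33, adjusted p = 0.00478) were lower. The most abundant APOA4 model, 10015979, averaged 905 CPM in EG and 976 CPM in CG, and its groups overlapped. It did not pass (log2 fold change -0.11, adjusted p = 0.83).

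Acute phase proteins, the targets of CEBPB and CEBPD in mammalian liver, had 8 of 20 tested genes higher (40.0%, beside 23.7% of all tested genes) and 1 lower (5.0%, beside 21.7%), with a median of 0.51. The higher count was 4 without Ga and 5 without G1 or G2, and over the 14 alternatives 4 to 8 genes were higher and 1 to 5 lower. Apcs (model 10011346), a pentraxin, was at 45.3, 19.8 and 26.5 CPM in EG, against 3.63, 3.18 and 3.14 CPM in CG (log2 fold change 3.20, adjusted p = 0.000202). The scarce APCS models 10011287 (-0.48, adjusted p = 0.741) and 10011288 (-0.45, adjusted p = 0.752) did not pass. LBP (model 10008198), the lipopolysaccharide binding protein, was at 191, 22.5 and 4.18 CPM in EG, against 9.19, 4.02 and 7.34 CPM in CG. Ga carried most of that level and Gc lay within the CG range, so its log2 fold change of 3.41 (adjusted p = 0.0432) rested on Ga and was 0.97 without it. Another Lbp model (10009833) averaged 29.8 CPM in EG and 20.9 CPM in CG and did not pass (0.51, adjusted p = 0.337). The complement factor CFB (model 10003914) averaged 715 CPM in EG and 1402 CPM in CG (log2 fold change -0.97, adjusted p = 0.00268), whereas another CFB model (10015306) was higher (1.39, adjusted p = 0.0062). The lists share genes, such as TTR in both target lists, and C3 and FGA among acute phase proteins and hepatocyte markers.

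Over the 6 lists together, 34 of 104 tested genes were higher (32.7%, beside 23.7% of all tested genes) and 18 lower (17.3%, beside 21.7%), with a median of 0.17. With library totals in place of TMM factors the split was 21 higher and 28 lower.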

How the data were processed

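Liver RNA of 3 EG and 3 CG pools was sequenced with an unstated use of strand. Reads were mapped by the authors with HISAT2 2.0.4 to their own genome of the species (build not given in the sources used here). The paper names RSEM 1.2.3 for the step from mapped reads to RPKM. The deposited raw counts are whole numbers without normalization. The deposited FPKM values are those counts per coding length and library total, and 97.6% of them lay within 0.1% of that quotient. The authors' deposited signal means per group, fold changes and DESeq p-values were not used.

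Genes with 10 or more counts in enough libraries were kept by filterByExpr and fitted over the whole table with edgeR 4.0.16 in R 4.3.3. Alternatives were other scaling factors, DESeq2 1.42.0, limma 3.58.1 on log2(FPKM + 1) and log2(FPKM + 0.1), other filters and leaving out each library. The fit was also run on simulated counts with few changed genes, split evenly by direction, which does not test the choice of scaling. The SE of a fold change is its size divided by the square root of F. Correlations used log2 CPM with a prior count of 2 over genes averaging at least 10 CPM.

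The members and lists were chosen with earlier results of these data known, so the CEBPB to CEBPA ratio is given without a test. Named list genes are the 2 largest increases and the 2 largest decreases among the called genes of a list. For a list with 4 or fewer called genes they are every called gene. CEBPG, HNF4G, Foxa3, fos, flt4, nr3c1, IL6ST, Stat3 and ONECUT2 were named after their values were seen. So were further models of TEF, CFB, JAK2, nfil3, Tsc22d3, CYP7A1, CYP8B1, APOA4, APCS and LBP, 2 JUN models and the cell type markers. The common biological coefficient of variation was 29.6%. Spearman correlations of log2 CPM were 0.958 to 0.968 between EG pools and 0.974 to 0.983 between CG pools, and no pair agreed within sampling noise. Some list genes and correlated genes are not reported here, and no sequences are shown.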

Additional observations from a re-analysis of the deposited data

How the results depend on the processing

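The calls of CEBPA, hnf4a and both abundant Prox1 models kept their direction and their side of the threshold in all 14 alternatives. Models called lower numbered 4, and 2 to 4 when 1 library was left out (2 without Gb, G1 or G2); models called higher numbered 3, and 2 to 3 when 1 library was left out. The Cebpd log2 fold change was -0.42 to 0.035 when 1 library was left out and changed sign without G1. Over all tested genes, 3398 were called higher, but 2024 with library totals in edgeR, 1962 with limma on log2(FPKM + 1) and 1970 with limma on log2(FPKM + 0.1), and 3113 were called lower, but 4754 and 4700 with those limma fits. Over the 6 lists, 34 genes were called higher, but 21 with library totals and 19 with either limma fit, and 18 were called lower, but 28 with library totals and 28 with limma on log2(FPKM + 1). The median of all tested genes moved to -0.37 with library totals and to -0.24 and -0.36 with the limma fits, which use the same totals. The log2 difference in the CEBPB to CEBPA ratio was 4.13 to 4.55 when 1 library was left out.

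No paired analysis was possible because the labels number the CG pools (G1 to G3) and letter the EG pools (Ga to Gc), so the numbers 1 to 3 given to each group here only name pools and pair none. Depth limits the scarce PROX1 models, which had at most 52 counts in a library.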
